A study of Mus musculus with 6 samples.

Results

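The open chromatin around 8 genes that direct the first lineage choices of the mouse embryo was examined in embryonic stem cells with 3 versions of Alkbh5. The members were the ATAC-seq peaks that overlap a fixed window at each gene (GRCm39): T at chr17:8610000-8690000, Eomes at chr9:118270000-118350000, Gata4 at chr14:63390000-63530000, Gata6 at chr18:11010000-11120000, Sox17 at chr1:4520000-4600000, Otx2 at chr14:48830000-48960000, Fgf5 at chr5:98360000-98460000 and Cdx2 at chr5:147200000-147270000. Overlapping peaks of different libraries (1 bp or more) were joined into regions, 153 of them in the 8 windows and 259376 in the mouse genome as a whole. A region here is a place where at least 1 library had a peak, and which gene a region acts on was not tested. Regions in a window may also belong to neighbouring genes, such as Neil2 beside Gata4 or Pdx1 beside Cdx2. The starts of such genes were not placed on the peaks.

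The cells were E14TG2a, a male mouse embryonic stem cell line, and ATAC-seq maps open chromatin by where a transposase inserts adapters. The 3 genotypes had 2 libraries each: Alkbh5 KO, Alkbh5 del-cIDR (an allele without the part of the protein called cIDR, where IDR is an intrinsically disordered region) and WT. ALKBH5 removes N6-methyladenosine from RNA. All cells grew with 15% FBS, 1000 U/ml LIF, 1 µM of the MEK inhibitor PD0325901 and 3 µM of the GSK3 inhibitor CHIR99021, conditions that hold stem cells before lineage commitment. The labels do not say whether replicates came from separate cultures, so their spread may be technical. If a genotype is 1 clone, genotype and clone cannot be told apart. In such bulk material, fewer open cells and less open chromatin per cell cannot be told apart either.

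The 8 genes stand for different exits from pluripotency. T (Brachyury) and Eomes are T-box transcription factors of the primitive streak, from which mesoderm and definitive endoderm arise, and T is a known target of Wnt signalling, the pathway that GSK3 inhibition turns on. Gata4 and Gata6 are zinc finger factors of primitive endoderm and later of heart and gut, and Sox17 is an HMG-box factor of endoderm. Otx2, a homeodomain factor, and Fgf5, a secreted growth factor, mark the epiblast as it leaves the naive state. Cdx2, a homeodomain factor, specifies trophectoderm and later the hindgut. In stem cells many such genes are silent while their regulatory DNA is partly open. Expression of the 8 genes was not analysed here.

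RefSeq promoters of 300 bases across a transcription start (GRCm38.p6) were on hand for 5 of the 8 genes, with 1 start each for T, Eomes, Fgf5 and Cdx2 and 4 starts for Otx2. They are shown 5′ to 3′ on the gene's strand for the 4 genes with a match to one of 5 short motifs of factor families at work in these lineages, and capitals mark the matches. These positions are in another build than the peaks, so whether a called region covers these starts was not analysed here.
T, chr17:8434173-8434472, plus strand: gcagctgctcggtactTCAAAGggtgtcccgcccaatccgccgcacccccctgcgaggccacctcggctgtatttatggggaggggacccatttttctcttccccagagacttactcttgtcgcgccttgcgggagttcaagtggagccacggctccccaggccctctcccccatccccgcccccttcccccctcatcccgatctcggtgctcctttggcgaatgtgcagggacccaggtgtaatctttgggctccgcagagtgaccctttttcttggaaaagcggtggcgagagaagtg
Otx2, start 3, chr14:48665060-48665359, minus strand: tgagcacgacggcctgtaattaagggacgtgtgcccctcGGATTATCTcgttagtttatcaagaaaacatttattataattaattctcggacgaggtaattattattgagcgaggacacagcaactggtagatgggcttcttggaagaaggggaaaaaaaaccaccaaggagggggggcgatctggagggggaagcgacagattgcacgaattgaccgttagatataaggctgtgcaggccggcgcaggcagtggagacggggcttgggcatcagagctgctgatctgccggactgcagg
Fgf5, chr5:98253934-98254233, plus strand: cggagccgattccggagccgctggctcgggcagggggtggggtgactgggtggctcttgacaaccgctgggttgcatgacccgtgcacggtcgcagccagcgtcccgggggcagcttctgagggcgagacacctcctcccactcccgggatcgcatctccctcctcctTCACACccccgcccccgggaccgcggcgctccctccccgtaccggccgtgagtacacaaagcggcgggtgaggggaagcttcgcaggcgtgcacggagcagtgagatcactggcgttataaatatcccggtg
Cdx2, chr5:147307200-147307499, minus strand: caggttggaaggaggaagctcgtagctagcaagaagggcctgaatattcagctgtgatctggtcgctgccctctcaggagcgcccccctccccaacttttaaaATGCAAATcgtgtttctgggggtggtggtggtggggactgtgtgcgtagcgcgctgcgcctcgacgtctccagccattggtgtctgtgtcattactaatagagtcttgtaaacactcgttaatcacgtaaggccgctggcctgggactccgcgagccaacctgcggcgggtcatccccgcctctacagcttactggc
Every motif was searched on both strands of 32851 promoters of this length. The core that TCF/LEF factors of the Wnt pathway read, spelled TCAAAG, was present in 16% of them and in T. The octamer read by POU factors such as OCT4, spelled ATTTGCAT, was present in 1.735% and in Cdx2, on the reverse strand. A core read by T-box factors, spelled TCACAC, was present in 14.49% and in Fgf5. Letters read by GATA factors, spelled AGATAA, were present in 11.18%, and those read by OTX factors, spelled TAATCC, in 7.062%. At Otx2 start 3 both were found on the reverse strand and overlapped, at bases 43 to 48 and 40 to 45 of the printed run. The GATA letters were also found at Otx2 start 4. A match is a run of letters and not a bound site.

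The promoters differed in their number of CpG pairs. The Fgf5 promoter held 29 CpG, at the 87.7th percentile of all promoters, where the median was 7. Cdx2 had 18, T had 17 and Eomes had 10, at the 71.1st, 69.4th and 57.6th percentiles. The 4 Otx2 starts had 6, 8, 16 and 11 CpG, at the 45.7th, 52.8th, 67.8th and 59.5th percentiles.

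Against bins along the genome, most of the windows were rich in called regions, but the member peaks as a whole were not strong. Each peak's fold, the authors' ratio of summit pileup over its local background, was turned into a percentile among the mouse peaks of its own list. The median percentile of the member peaks was 41.7 and 44.3 in the KO libraries, 42.2 and 44.5 in the del-cIDR libraries, and 44.8 and 41.5 in the WT libraries, where 50 is the middle of a list. The genotype values were 43.0 ± 1.83 for KO, 43.4 ± 1.63 for del-cIDR and 43.2 ± 2.27 for WT (SD, n = 2), so they lay closer together than the replicates of a genotype. That closeness depended on the measure. In lists of equal length the values were 42.6 for KO, 41.5 for del-cIDR and 45.8 for WT. Ranked by summit height they were 55.3, 53.3 and 48.1. Between 8.9% and 12.0% of the member peaks of a library stood at or above the 90th percentile.

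Member peaks were more numerous in WT, whose lists are longer. KO had 105 and 92, del-cIDR 99 and 101, and WT 123 and 121 peaks in the 8 windows, and the whole lists held 164639 and 150680 mouse peaks in KO, 157931 and 155128 in del-cIDR, and 193905 and 184884 in WT. Of the 153 regions, 66 (43.1%) were called in all 6 libraries, near the 38.3% of all regions, and 39 (25.5%) in 1 library, near the 25.2% of all. Total reads are not analysed here. Depth shows in the background, solved from the deposited fold and p as 1.26 and 1.01 tags for the KO libraries, 1.14 and 1.14 for del-cIDR, and 1.09 and 1.18 for WT, and the lowest summits called held 5 to 6 tags. A region missing from a list may thus have been open below the calling limit.

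**Figure D1:**
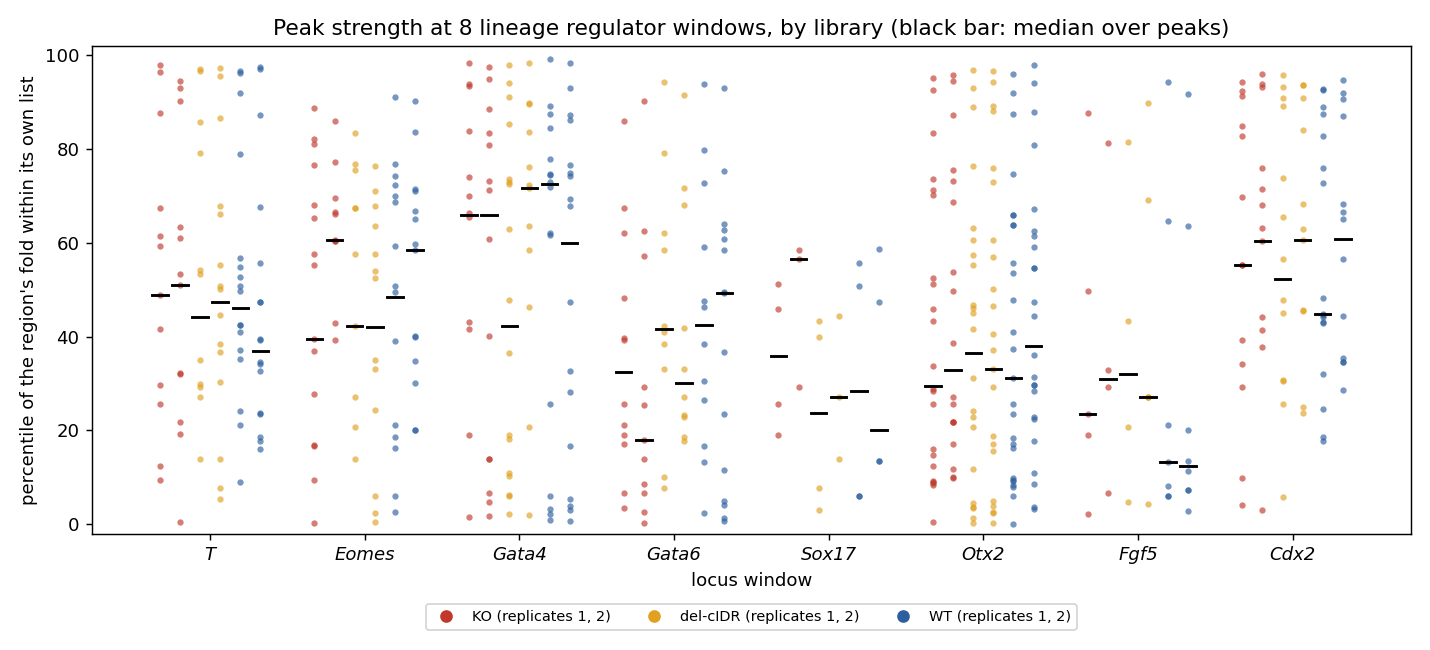
Within-list percentile of the fold (vertical axis) of every member region, by window and library, with KO, del-cIDR and WT from left to right and replicates 1 and 2 of each side by side. Points are called regions and black bars are the median of a library. All windows except Sox17 hold a region above the 80th percentile in at least 5 of the 6 libraries, while the medians lie between the 12th and the 73rd percentile.

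The windows differed widely among themselves. By the median percentile of its peaks, Gata4 stood highest in both KO libraries. In del-cIDR and WT its libraries overlapped those of Cdx2, and in del-cIDR they parted, at 42.2 and 71.8. Gata4 was at 65.9 ± 0.0845 in KO, 57.0 ± 20.9 in del-cIDR and 66.2 ± 8.88 in WT, and Cdx2 at 57.9 ± 3.71, 56.4 ± 5.96 and 52.8 ± 11.4 in the same genotypes (SD, n = 2). Eomes and T had middle values whose order changed with the genotype. In KO they overlapped, at 50.01 ± 14.8 for Eomes and 49.9 ± 1.58 for T, in del-cIDR Eomes was below T, at 42.1 ± 0.123 and 45.8 ± 2.27, and in WT it was above, at 53.5 ± 7.001 and 41.5 ± 6.51 (SD, n = 2). Gata6 was at 25.2 ± 10.3 in KO and 35.9 ± 8.10 in del-cIDR, against 45.9 ± 4.93 in WT (SD, n = 2). Sox17, with 3 to 5 peaks in a library, was at 46.1 ± 14.6 in KO and 25.5 ± 2.44 in del-cIDR, against 24.3 ± 5.87 in WT (SD, n = 2). Otx2 was low, at 31.2 ± 2.37 in KO, 34.8 ± 2.33 in del-cIDR and 34.6 ± 4.94 in WT (SD, n = 2), although it held 28 regions. Fgf5 was at 27.3 ± 5.25 in KO and 29.6 ± 3.39 in del-cIDR, against 12.8 ± 0.604 in WT (SD, n = 2), but these medians rest on 5 and 4, 4 and 6, and 7 and 8 peaks, and the WT lists are longer. Each library's median was also taken over its own set of peaks. Ranked among regions called in all 6 libraries, the Fgf5 medians were 19.6 in KO, 37.5 in del-cIDR and 37.0 in WT, another order. The Sox17 order changed too, at 31.3, 16.7 and 23.9, while Gata6 kept its order, at 13.7, 21.0 and 32.7.

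Against bins of 100 kb along the genome, of which there were 27215 with a median of 7 regions, 6 of the 8 windows stood well above the middle. The bins run from the start of each chromosome, take regions by their midpoint and count stretches without any region. The windows take regions by overlap and were placed at genes, and windows at other genes were not compared. T held 23 regions, 28.8 per 100 kb, and 98.6% of bins held fewer. Cdx2 held 19, 27.1 per 100 kb, and 97.9% of bins held fewer. By regions called in all 6 libraries Cdx2 was the densest of the 8, with 15.7 per 100 kb, more than 99.3% of bins. Eomes (22.5 per 100 kb), Otx2 (21.5), Gata4 (20) and Gata6 (17.3) were denser than 91.9%, 90.1%, 86.1% and 81.4% of bins. Fgf5 with 12.0 per 100 kb and Sox17 with 7.5 per 100 kb were near the middle, at 64.7% and 50.2% of bins. Sox17 had 6 regions, 2 of them called in all 6 libraries.

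**Figure D2:**
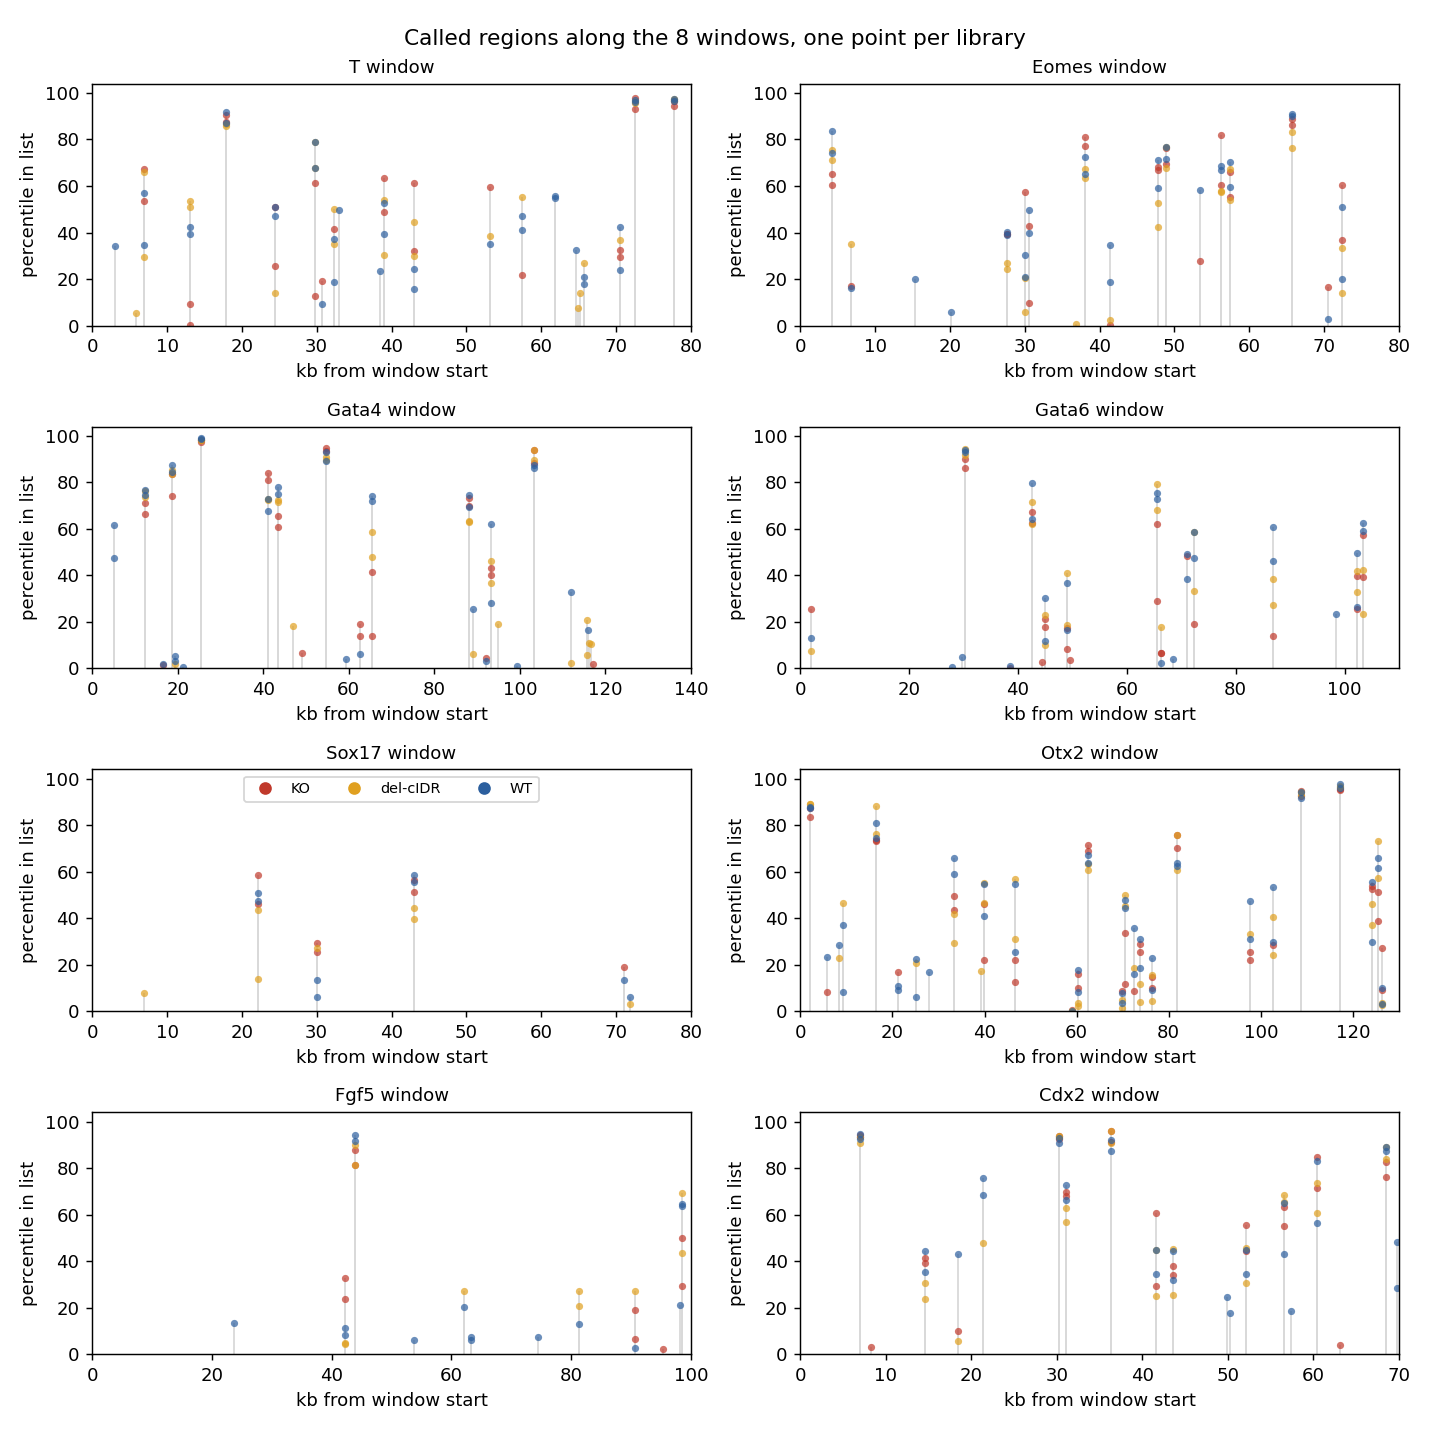
Called regions along each window (horizontal axis, kb from the window's start) with their within-list percentile (vertical axis) in each library; colours give the genotype, KO, del-cIDR and WT. Cdx2 has strong regions spread over its 70 kb, T has its strongest pair within the last 10 kb, and Sox17 has none above the 60th percentile.

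At the mesendoderm genes, the strongest T region lay at chr17:8687482-8688098. It stood at the 96.4th and 94.5th percentile in KO, the 97.0th and 97.3rd in del-cIDR, and the 96.6th and 97.5th in WT, with summits of 92 and 65, 91 and 87, and 74 and 89 tags. A second one at chr17:8682358-8682830 was at the 93.1st percentile or higher in every library. Another strong T region, chr17:8627384-8628261, lay toward the other end of the window, between the 85.8th and the 91.9th percentile. Of the 23 T regions, 8 were called in all 6 libraries.

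Eomes had no region with a mean at or above the 90th percentile. Its strongest, chr9:118335030-118336345, stood at the 88.8th and 86.1st percentile in KO, the 83.4th and 76.5th in del-cIDR, and the 91.1st and 90.3rd in WT. Its summits held 54 and 45 tags in the KO libraries, 52 and 38 in del-cIDR, and 55 and 59 in WT. Both del-cIDR percentiles were below those of the other 4 libraries, in lists of different length. By rank among the regions called in all 6 libraries, used below, 5.47% of such regions had a del-cIDR gap below WT as large. For del-cIDR below KO the share was 13.2%. The tallest Eomes region by tags was another one, chr9:118307191-118308920, 1730 bp wide, with 106 and 78 tags in KO, against 64 and 66 in del-cIDR and 70 and 66 in WT. It sat on a local background of 5.56 to 6.91 tags, so its percentile by fold was 63.6 to 81.2.

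At the endoderm genes, Gata4 held the strongest region of all 8 windows. Chr14:63415048-63415903 stood at the 98.4th and 97.5th percentile in KO, the 98.02nd and 98.4th in del-cIDR, and the 99.1st and 98.4th in WT. Its summit held 242 and 172 tags in the KO libraries, 181 and 189 in del-cIDR, and 175 and 200 in WT, so the groups overlapped. A second Gata4 region with a mean above the 90th percentile, chr14:63444475-63444832, was narrower and lower, with 32 to 43 tags on a background of 1.07 to 1.28 tags. Chr14:63492760-63493838 was taller than it, with 137 and 90 tags in the KO libraries, 106 and 86 in del-cIDR, and 78 and 85 in WT, on a background of 4.28 to 6.02 tags. Gata4 also had the most regions called in 1 library, 10 of 28, but its window of 140 kb is the widest. T had 7 of 23 in 80 kb and Cdx2 5 of 19 in 70 kb, and the share over all regions was 25.2%.

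Gata6 had one strong region, chr18:11039929-11040436. It stood at the 86.0th and 90.2nd percentile in KO, the 94.3rd and 91.6th in del-cIDR, and the 93.8th and 92.9th in WT, with 42 and 40, 54 and 54, and 48 and 54 tags. Both KO libraries were below the other 4 in percentile and in tags, in lists of different length. By rank among the regions called in all 6 libraries, used below, 18.5% of such regions had a KO gap below WT as large. For KO below del-cIDR the share was 18.3%. The other Gata6 regions were weaker, and the next one called in all 6 libraries was chr18:11052095-11052911 with 62.2 to 79.7. At chr18:11075247-11075802 the KO libraries parted, at the 62.1st and 29.2nd percentile with 19 and 9 tags, against the 79.2nd and 68.1st in del-cIDR with 29 and 22 tags and the 72.8th and 75.4th in WT with 24 and 28 tags.

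Sox17 had the lowest strongest region of the 8 windows by fold. That region, chr1:4561896-4564051, stood at the 51.3rd and 56.5th percentile in KO, the 39.8th and 44.5th in del-cIDR, and the 55.8th and 58.7th in WT. The same region was tall, with 79 and 68 tags in the KO libraries, 52 and 54 in del-cIDR, and 56 and 70 in WT, and at 2156 bp it was wide. Its local background of 6.88 to 10.1 tags was several times that of the libraries. By its fold, a ratio to that background, it ranked lower than by height. The other Sox17 region called in all 6 libraries, chr1:4541732-4542519, had 8 to 15 tags.

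At the epiblast genes, Otx2 had 2 regions with means above the 90th percentile near one end of its window. Chr14:48946906-48947588 stood at the 95.2nd and 95.8th percentile in KO, the 96.9th and 96.6th in del-cIDR, and the 96.1st and 97.8th in WT, with 112 and 87, 115 and 113, and 91 and 114 tags. Its neighbour chr14:48938311-48939041 was taller, with 165 and 138 tags in the KO libraries, 138 and 133 in del-cIDR, and 109 and 144 in WT. At the other end of the window, chr14:48831762-48832249 had 69 to 101 tags and stood between the 83.4th and the 89.2nd percentile. All 6 libraries shared 16 of the 28 Otx2 regions, and 2 were found in 1 library alone.

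Fgf5 had a single strong region, chr5:98403601-98404170. It stood at the 87.6th and 81.3rd percentile in KO, the 81.5th and 89.9th in del-cIDR, and the 94.2nd and 91.8th in WT, with 75 and 45, 61 and 79, and 88 and 93 tags. All 4 mutant libraries lay below both WT libraries in percentile and in tags, but the WT lists are longer. By rank among the regions called in all 6 libraries, used below, 13.1% of such regions had a KO gap below WT as large. For del-cIDR below WT the gap was -0.458 points, nearly a tie, and the share was 17.9%. Apart from it, 2 Fgf5 regions were called in all 6 libraries, both at lower percentiles. Chr5:98458366-98458676 had 15 and 9 tags in the KO libraries, 13 and 21 in del-cIDR, and 17 and 19 in WT. Chr5:98401810-98402640 had 24 and 21 tags in the KO libraries, 17 and 18 in del-cIDR, and 17 and 22 in WT, all under the 33rd percentile.

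The window of Cdx2, the trophectoderm gene, had 3 regions with means above the 90th percentile, the most of any window. The next protein-coding genes on its sides are Pdx1 and Urad, and whether these regions lie at one of them was not analysed here. Chr5:147206682-147207340 stood at the 94.4th and 93.3rd percentile in KO, the 90.9th and 93.6th in del-cIDR, and the 92.7th and 94.8th in WT. The tallest, chr5:147229829-147230587, had 103 and 81 tags in the KO libraries, 93 and 101 in del-cIDR, and 89 and 90 in WT. Its 6 summits lay within 7 bp of each other. The remaining one, chr5:147235875-147236726, ranged from the 87.5th to the 96.0th percentile.

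Several member regions ranked far lower by fold than by summit height, on a high local background. Of the 153 regions, 8 (5.23%) had a mean percentile under 20 by fold and of at least 50 by summit height, against 2.78% of all regions. Of the 8, 5 lay in the Otx2 window, where neighbouring regions were counted one by one. These limits were not planned, and the count rests on them. The Otx2 region at chr14:48902334-48902622 was counted at 19.99 by fold, and chr14:48902986-48904454 was left out at 20.002. At chr14:48888934-48889223 the summit held 37 tags in KO replicate 1, 35 and 31 in del-cIDR and 27 in WT replicate 1, yet the region was under the 1st percentile by fold in all 4, and it was not called in the other 2 libraries. The next Otx2 region, chr14:48890098-48890362, had 39 to 59 tags and was between the 2.32nd and the 17.7th percentile. Beside it, chr14:48891735-48893203 had 97 to 152 tags on a background of 9.72 to 13.3 tags and stood between the 60.7th and the 71.3rd percentile. Over the 66 regions called in all 6 libraries, the median local background was 2.96 tags, against 2.09 over all such regions, and the median width 671 bp against 555 bp. Their median percentile was 61.7 by fold, against 67.8 over all, but 68.6 by height, against 67.7 over all.

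**Figure D3:**
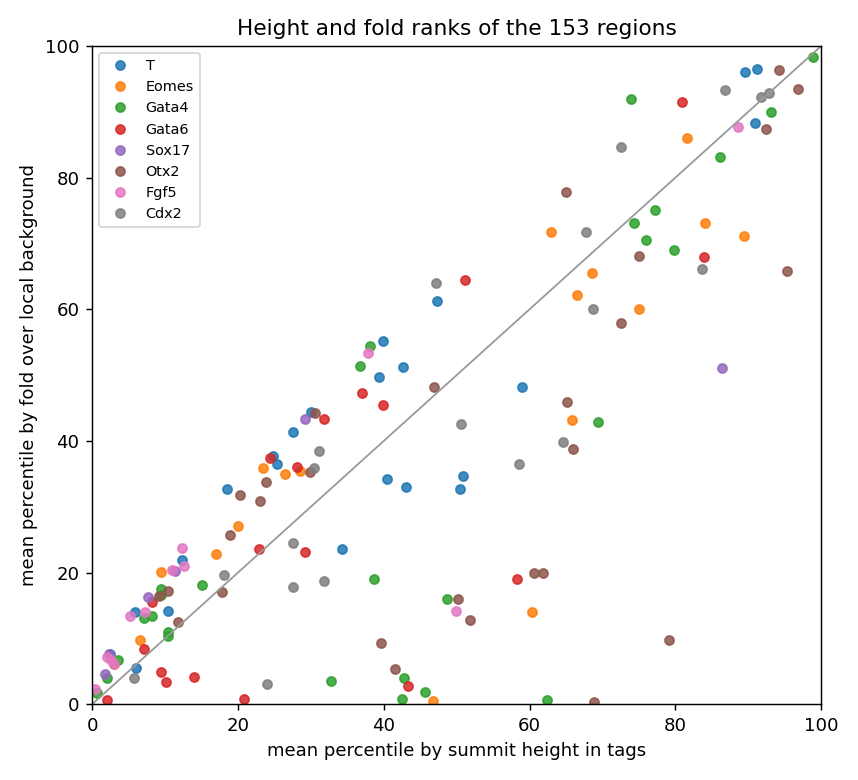
Mean percentile by summit height in tags (horizontal axis) against mean percentile by fold over the local background (vertical axis) for the 153 regions, coloured by window, with the line of equality. Points far below the line at the right are tall regions that rank lower by fold than by height. Among them are the widest Sox17 region (86.4 by height, 51.1 by fold) and the Otx2 region with 97 to 152 tags (95.4 by height, 65.8 by fold).

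The comparison of KO with WT asks whether loss of Alkbh5 went with other calls or other ranks at these loci. No member region (0%) was present in both KO lists and absent from both WT lists, a pattern of 1.89% of all regions. The reverse, present in both WT lists and absent from both KO lists, held for 9 (5.88%), against 7.22% of all regions. The WT lists are the longer ones, and at equal list length the counts became 3 and 5. They also rest on each library, since fewer calls are required when 1 is left out: the first was 4 and 3 without replicates 1 and 2 of KO, and 2 and 1 without those of WT. The second was 17 and 12 without replicates 1 and 2 of KO, and 25 and 21 without those of WT. Counts at equal list length or with a library left out, here and below, come without the share over all regions. They show how far a count moves and nothing particular to the members.

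Of the regions called in WT and not in KO, 2 were at or above the 50th percentile in both WT lists. One, in the T window at chr17:8671769-8671908, was called in no KO or del-cIDR library and stood at the 54.8th and 55.7th percentile in WT with 14 and 17 tags. The other, in the Cdx2 window at chr5:147221273-147221436, was called in no KO library. Of the del-cIDR libraries replicate 1 had it at the 47.7th percentile with 14 tags, against the 75.9th and 68.3rd percentile in WT with 22 and 21 tags. The 7 others, in the Otx2, Gata4, T, Fgf5 and Cdx2 windows, had 6 to 16 tags in WT.

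Percentiles in lists of different lengths cannot show a change. Genotypes were thus compared by the rank of the fold among the 99216 regions called in all 6 libraries, given as a percentile of that set. Member regions missing from any list have no such rank. A rank within a library also cannot show a rise or fall shared by all regions. Both KO ranks were above both WT ranks in 21 of the 66 member regions (31.8%), against 27.2% of all. Both were below in 14 (21.2%), against 23.2% of all. These shares were near those of all regions. The median rank difference of KO minus WT was 2.03 points over the members and 0.60 over all regions, with median sizes of 7.28 and 7.42 points, while the replicates of KO differed by a median of 7.20 points and those of WT by 5.71 over the members. Fewer libraries have to differ when 1 is left out, and the counts that follow come without the share over all regions. With replicate 1 of KO left out, 32 regions were higher in KO. With replicate 2 of KO left out 22 were lower in KO, and with replicate 1 of WT left out 23.

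The largest gaps between KO and WT lay in the Gata4 window, in regions picked after their values were seen. Chr14:63455285-63455535 ranked at 10.7 in KO and 50.8 in WT on average, with 13 and 7 tags in the KO libraries, 14 and 17 in del-cIDR, and 20 and 24 in WT. A gap as large in that direction occurred in 1.07% of all regions called in every library. In the opposite direction, chr14:63430744-63431612 ranked at 72.3 in KO and 46.6 in WT, with 68 and 50 tags in the KO libraries, 38 and 38 in del-cIDR, and 35 and 36 in WT. Both KO summits were the tallest of the 6, and 1.62% of all regions had such a gap. The tall Eomes region at chr9:118307191-118308920 ranked at 67.3 in KO and 44.1 in WT, and 3.02% of all regions had such a gap. One T region showed how far replicates can part: chr17:8639533-8640031 ranked at 2.497 and 42.9 in the KO libraries and at 60.0 and 43.4 in the WT libraries, with 8 and 16 tags in KO against 26 and 21 in WT.

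The comparison of del-cIDR with WT asks the same of the shortened protein. Just 1 member region (0.654%) was present in both del-cIDR lists and absent from both WT lists, against 0.931% of all regions. It lay at chr14:63505545-63505797 in the Gata4 window and had 8 and 9 tags in del-cIDR. The reverse held for 7 (4.58%), against 5.33% of all. The T region at chr17:8671769-8671908 was the only one of these 7 at or above the 50th percentile in both WT lists. At equal list length the first count was 4. It was 5 and 7 without replicates 1 and 2 of del-cIDR, and 3 without replicate 1 of WT. The second count was 11 and 15 without replicates 1 and 2 of del-cIDR, and 24 and 21 without those of WT.

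By rank, both del-cIDR libraries were above both WT libraries in 12 of the 66 regions (18.2%), against 21.1% of all, and below in 10 (15.2%), against 19.5% of all. The rank differences were smaller than in the other pairs: their median size was 4.56 points over the members and 5.61 over all regions, against 7.07 between the del-cIDR replicates and 5.71 between the WT replicates over the members. Of the 10 lower regions, 3 were in the Eomes window, among them its strongest region, and the Gata4 and Otx2 windows had 2 each. The largest gap was at chr17:8622895-8623196 in the T window, picked after its values were seen. It ranked at 31.1 in del-cIDR and 12.98 in WT, and 1.07% of all regions had such a gap. By tags the genotypes met, at 29 and 27 in del-cIDR and 22 and 27 in WT. Its local background was 2.91 and 2.76 tags in del-cIDR and 2.98 and 3.65 in WT. The count of regions higher in del-cIDR was 25 and 27 without replicates 1 and 2 of del-cIDR, and 28 and 27 without those of WT. The count of lower regions was 18 and 17, and 19 and 22, without the same libraries.

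**Figure D4:**
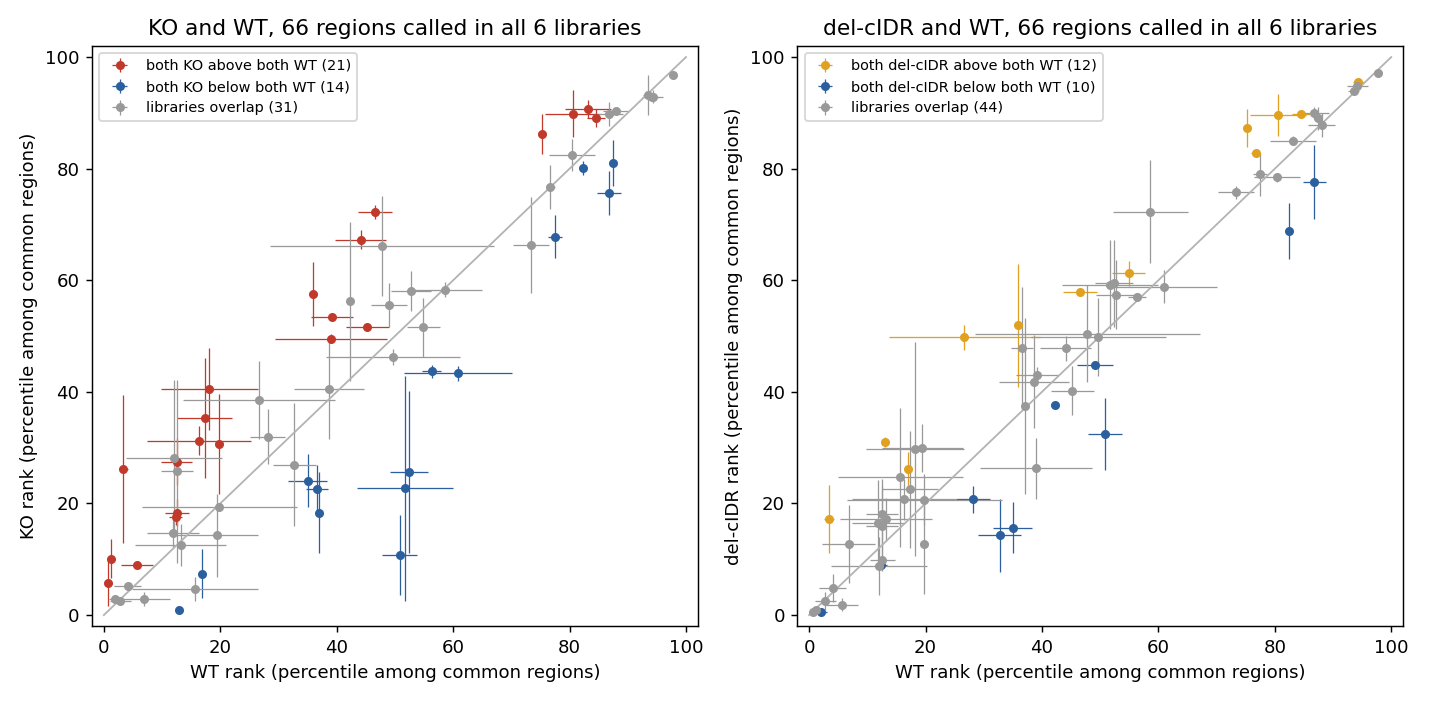
Mean rank of the fold in the mutant genotype (vertical axis; KO on the left, del-cIDR on the right) against that in WT (horizontal axis), as percentiles among regions called in all 6 libraries, for the 66 member regions. Bars span the 2 libraries of a genotype and the line marks equality. KO lies above WT in 21 and below in 14 regions, and del-cIDR above in 12 and below in 10.

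The comparison of del-cIDR with KO sets the shortened protein against its absence. Present in both del-cIDR lists and absent from both KO lists were 2 member regions (1.31%), against 3.59% of all, and the reverse held for 2 (1.31%), against 3.5% of all. The first pair were the Gata4 region at chr14:63505545-63505797 and chr5:98441269-98441534 in the Fgf5 window, and the second pair chr14:63452318-63452771 in the Gata4 window and chr9:118300335-118300679 in the Eomes window. None had more than 12 tags in the genotype that had it. The first count was 8 and 16 without replicates 1 and 2 of del-cIDR, and 8 without replicate 1 of KO. The second was 9 without replicate 2 of del-cIDR, and 10 and 11 without replicates 1 and 2 of KO.

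Both del-cIDR ranks were above both KO ranks in 19 of the 66 regions (28.8%), against 23.1% of all, and below in 20 (30.3%), against 25.8% of all. The median size of the difference was 9.55 points over the members and 7.15 over all regions. Counts by window were not planned, and how often windows elsewhere split as unevenly was not analysed here. Of the 20 lower regions, 6 were among the 9 Eomes regions called in all 6 libraries, with 1 Eomes region higher. Gata6 and T went the other way. Of the 7 Gata6 regions called in all 6 libraries, 3 were higher and none was lower, and T had 3 higher and 1 lower. Of the 16 Otx2 regions called in all 6 libraries, 7 were higher and 5 lower in del-cIDR. The Sox17 regions called in all 6 libraries were both lower in del-cIDR, but by little. The gap was -3.87 points at chr1:4561896-4564051 and -0.0217 points, nearly a tie, at chr1:4541732-4542519. Gaps as large occurred in 15.4% and 25.6% of all regions called in every library. The T region at chr17:8622895-8623196, picked after its values were seen, had the largest gap. It ranked at 31.1 in del-cIDR and 0.914 in KO, with 29 and 27 tags in del-cIDR and 16 and 9 in KO, and 1.14% of all regions had such a gap. Without replicate 1 of del-cIDR the count of higher regions was 32, and without replicate 2 that of lower ones was 30.

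For the strongest region of each window the rank differences were tested by exact permutation, two-sided, over the libraries. With 2 libraries against 2 the smallest p is 0.333, so no difference could pass 0.05. The 24 exact p values, for 8 regions and 3 genotype pairs, ran from 0.333 to 1, with 12 at the smallest value, and the lowest was 0.667 after Benjamini-Hochberg adjustment. The smallest value arises wherever both libraries of one genotype lie above or below both of the other. Over all regions called in every library, KO was so above WT in 27.2% and below in 23.2%. For del-cIDR the shares were 21.1% and 19.5% against WT, and 23.1% and 25.8% against KO. At Eomes the strongest region ranked at 68.8 ± 7.06 in del-cIDR, against 82.4 ± 0.447 in WT, a difference of -13.5 points, and at 80.2 ± 1.76 in KO (SD, n = 2). The strongest Fgf5 region ranked at 75.6 ± 5.60 in KO and 77.6 ± 9.43 in del-cIDR, against 86.8 ± 2.83 in WT (SD, n = 2). The strongest Gata6 region ranked at 81.0 ± 5.76 in KO, against 87.5 ± 0.801 in WT, a difference of -6.46 points (SD, n = 2). At Gata4 the strongest region ranked at 96.7 ± 0.796 in KO and 97.2 ± 0.427 in del-cIDR, against 97.7 ± 0.873 in WT, with all genotypes overlapping (SD, n = 2).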

How the data were processed

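ATAC-seq peak lists of 6 libraries, 2 per genotype by the sample titles, were used, 1 list per library without pooling. Per the submitters' processing notes, the tools were MACS2, BWA, fastp, featureCounts, Picard and SAMtools and the build GRCm39; no version, setting or shift of reads to the cut site was given in the sources used here. The authors deposited for each peak a fold (a ratio of summit pileup to local background), a −log10 p-value, a −log10 q-value, a score and the summit's offset from the peak's start. These are each peak's own values and were used to rank and filter within a list. Lists hold only peaks with a q-value of at most 0.05, so depth limits which weak regions appear; total counts of reads are not used here.

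Peaks on the spike-in sequence were left out. Mouse peaks overlapping by 1 bp or more were joined as regions, and a region's value in a library was the highest among its peaks there. Percentiles are the share of a library's mouse peaks with a lower fold, with ties at their middle. Summit heights were solved from fold and p in the form MACS2 uses, with a background of at least 0.5 tags, and were whole within 0.1 tag in 100% of peaks of each list. Merging, patterns, ranks and heights were tested on simulated data. The steps ran in Python 3.11.15 with numpy 2.4.6, pandas 2.3.3, scipy 1.17.1 and matplotlib 3.10.9.

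The members and lists were chosen with earlier results of these data known. Named were the region with the highest mean percentile of each window among those called in all 6 libraries, regions with a genotype pattern at or above the 50th percentile, the tallest regions and those picked after their values were seen. The gene starts on hand are in GRCm38.p6, so the planned promoter regions, the lists of other lineage, naive pluripotency and cell-type marker genes, and a check of the cell type by them could not be placed on the peaks and were not run. The strongest region of each window took the place of its promoter in the exact tests. Alternatives were a −log10 q of at least 5, lists of equal length, windows wider by 20 kb, merging at 100 bp, other ranking columns and sets, a replicate block and leaving out each library.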

Additional observations from a re-analysis of the deposited data

How the results depend on the processing

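Counts of the 153 member regions by genotype depended on the threshold, the list length and each library, and no alternative gave a difference that the design could test. With only peaks of −log10 q of at least 5, 9 regions ranked lower in KO than in WT, 0 were called in del-cIDR and not in WT, 5 in del-cIDR and not in KO, and 12 ranked higher in del-cIDR than in KO, with median percentiles of 45.0 for KO, 45.7 for del-cIDR and 46.2 for WT. At equal list length, 3 regions were called in KO and not in WT, 5 in WT and not in KO, and 4 in del-cIDR and not in WT, with median percentiles of 41.5 for del-cIDR and 45.8 for WT. Windows widened by 20 kb gave 2 regions called in del-cIDR and not in WT. Merging at 100 bp kept all 12 counts within 1.5 times. Ranked by −log10 q, the medians were 48.2 for KO and 46.0 for WT; among regions called in all 6 libraries, that for WT was 39.7. Percentiles of the whole lists in place of ranks gave 8 regions higher and 23 lower in KO than in WT, and 6 higher and 20 lower in del-cIDR than in WT. The lists differ in length, and how far that accounts for these counts was not tested. Ranked by height in tags, chosen after seeing the data, 20 regions were higher in del-cIDR than in WT, and the medians were 55.3 for KO, 53.3 for del-cIDR and 48.1 for WT. With 1 library left out, fewer libraries have to differ, and shares over all regions are not given for any of these settings. Called in KO and not WT were then 0 to 4, in WT and not KO 9 to 25, in del-cIDR and not WT 1 to 7, in WT and not del-cIDR 7 to 24, in del-cIDR and not KO 2 to 16, and in KO and not del-cIDR 2 to 11. Ranked higher in KO than WT were 20 to 32, lower 14 to 23; higher in del-cIDR than WT 12 to 28, lower 10 to 22; higher in del-cIDR than KO 18 to 32, lower 18 to 30. For the strongest region of each window, 14 of 288 alternative values of the 24 rank differences had the other sign, in 8 differences. Replicate numbers did not pair the libraries: correlations of deviations between genotypes were -0.010 to 0.0062. With the replicate block the difference at the strongest Eomes region, del-cIDR minus WT, stayed -13.5, and exact sign-flip p values ran from 0.5, the smallest possible, to 1, so no call could change. The alternatives for promoter regions were not run, as gene starts in GRCm39 were not on hand.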
